A study of Mus musculus with 6 samples.

Results

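Of the 16448 genes in the deposited table, 77 were protein-coding genes whose symbol begins with Mrpl or Mrps followed by a digit, the names of the proteins of the mitochondrial ribosome. The Mrpl symbols name 48 genes of the large subunit and the Mrps symbols 29 genes of the small subunit. Expression was measured by total RNA sequencing of cardiomyocytes (CMs) isolated from adult C57BL/6 mice of 8 to 12 weeks. The 3 CtrlCre samples carried αMHC-Cre with wild-type *Cpt1b* alleles, and the 3 Cpt1bcKO samples carried αMHC-Cre with *Cpt1b* fl/fl alleles, in which Cre removes a part of the gene. Cre is therefore shared by both groups, and it is driven by the cardiac α-myosin heavy chain promoter, which is active in CMs before birth. The study places the inactivation of *Cpt1b* in this line at embryonic stages. The study describes its replicates as mice, but the sample labels name no animals. The comparison asked whether loss of CPT1B, which brings long-chain fatty acids into mitochondria for oxidation, was accompanied by altered expression of the genes for mitochondrial ribosomal proteins.

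The mitochondrial ribosome translates the few messenger RNAs of mitochondrial DNA, all of which encode subunits of the respiratory chain and ATP synthase. Its rRNAs come from mitochondrial DNA, whereas every one of its proteins is encoded in the nucleus, made in the cytosol and imported. The small subunit binds the messenger RNA and holds the decoding site, the large subunit forms peptide bonds and releases the chain towards the inner membrane, and CMs, which are rich in mitochondria, depend on this supply. Inherited defects of *MRPL3*, *MRPL44*, *MRPS14* and *MRPS22* are known in patients with cardiomyopathy.

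The values are normalized read counts, rounded to whole numbers by the authors. Over the 6 samples they summed to between 13393411 and 31722217, of which the mitochondrial rRNA *mt-Rnr2* alone took 61.8% to 80.8%, and to between 3146414 and 3551692 without mitochondrial-encoded and rRNA genes. *Cpt1b* had values of 1861, 893 and 1443 in CtrlCre and 211, 353 and 285 in Cpt1bcKO, a log2 fold change of -2.27 (SE 0.27, limma adjusted p = 0.00338). All 11 CM markers examined were present, with summed values of 606262 to 687229 in CtrlCre and 414783 to 618388 in Cpt1bcKO. The 8 fibroblast markers summed to 498 to 785 in CtrlCre and to 1108 to 1338 in Cpt1bcKO, the 9 endothelial markers to 1489 to 3115 and 2886 to 3404, the 8 smooth muscle and pericyte markers to 3907 to 5066 and 2879 to 3283, and the 8 macrophage and leukocyte markers in the table to 96 to 144 and 114 to 134. The erythroid markers *Hba-a1* and *Alas2* together reached 20 at most, and no adipocyte marker examined was in the table. The part that these cell types have in the values below was not tested, and fewer cells of a type cannot be told apart from less RNA per cell. Replicate 1 of both groups had high values of *Xist*, the X-inactivation transcript of female cells (957 in CtrlCre and 1080 in Cpt1bcKO), whereas the other 4 samples had 23 to 78.

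Neither subunit contained a gene that passed the test between Cpt1bcKO and CtrlCre in the main fit, which has group as its only term. The filter, which asked for 3 or more samples with a value of 10 or above, kept all 48 large subunit genes and 28 of the 29 small subunit genes. With limma on log2(value + 1) and Benjamini-Hochberg adjustment over all 11364 genes tested, 0 of the 48 large subunit genes and 0 of the 28 small subunit genes had an adjusted p below 0.05, beside 1.57% of all genes (0.66% higher and 0.906% lower in Cpt1bcKO). At an unadjusted p below 0.05 the counts were 0 and 1, together 1 of 76 (1.32%), beside 13.9% of all genes. Samples of the groups did not overlap for 2 large and 2 small subunit genes, together 4 of 76 (5.26%), beside 18.7% of all genes. These 4 genes were *Mrpl44* and *Mrps18a*, higher in Cpt1bcKO, and *Mrpl23* and *Mrps35*, lower in Cpt1bcKO.

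The intervals show how large a change the measurements leave room for. The median log2 fold change was -0.032 in the large subunit (22 genes above 0 and 26 below) and -0.12 in the small subunit (11 above and 17 below), beside -0.0013 over all genes tested. The 95% confidence interval of the fold change lay within 2-fold in either direction for 40 of 48 large subunit genes and 23 of 28 small subunit genes, together 63 of 76 (82.9%), whereas 6934 of all 11364 genes had an interval within these bounds. An interval within 1.5-fold was reached by 17 large and 8 small subunit genes (32.9% of the 76, and 20.5% of all genes). The estimate itself was under 0.25 on the log2 scale, in either direction, for 34 large and 16 small subunit genes (65.8%, and 49.9% of all genes) and over 0.5 for 4 large and 2 small subunit genes (7.89%, and 22.1% of all genes). The median SE was 0.22 over the 76 genes and 0.26 over all genes.

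**Figure D1:**
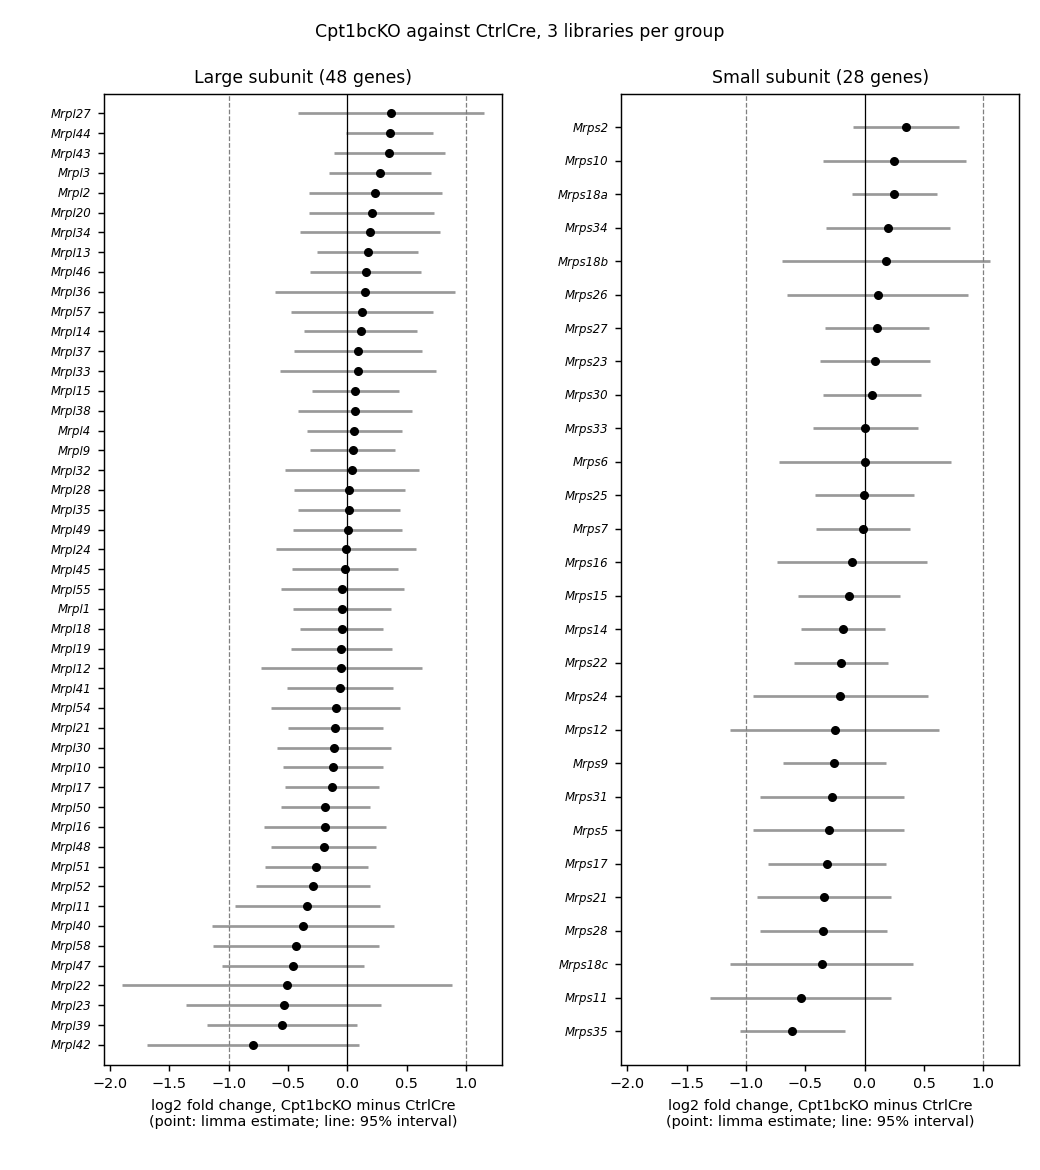
Log2 fold change of each mitochondrial ribosomal protein gene, Cpt1bcKO minus CtrlCre (x axis), for 48 large subunit genes (left) and 28 small subunit genes (right). Points are limma estimates and lines 95% confidence intervals, dashed lines mark 2-fold changes, and the interval of *Mrps35* is the only one of the 76 that lies wholly on one side of 0.

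In the large subunit, the gene with the smallest p value was *Mrpl44* (ENSMUSG00000026248, chr1:79776018-79781445, + strand), whose product resembles the ribonuclease III family. Its values were 174, 166 and 213 in CtrlCre and 225, 225 and 255 in Cpt1bcKO. All Cpt1bcKO samples exceeded all CtrlCre samples, but the difference did not pass the test (log2 fold change 0.35, SE 0.17, limma adjusted p = 0.38). *Mrpl43* had values of 106, 88 and 74 in CtrlCre and 101, 106 and 135 in Cpt1bcKO, with the lowest Cpt1bcKO sample below the highest CtrlCre sample (0.35, adjusted p = 0.50). *Mrpl27*, whose bacterial counterpart lies near the peptidyl transferase centre, was low throughout, with values of 20, 18 and 22 in CtrlCre and 17, 27 and 38 in Cpt1bcKO (0.37, adjusted p = 0.69, with estimates from 0.10 to 0.66 over the alternatives). *Mrpl3*, a core protein of the large subunit, had values of 277, 301 and 286 in CtrlCre and 466, 317 and 286 in Cpt1bcKO. Cpt1bcKO replicate 1 stood above the other 5 samples for this gene, and the log2 fold change of 0.27 (adjusted p = 0.57) was 0.037 without replicate 1 of both groups. *Mrpl2*, which lies at the peptidyl transferase centre in bacteria, had values of 113, 67 and 87 in CtrlCre and 134, 95 and 85 in Cpt1bcKO (0.24, adjusted p = 0.73).

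*Mrpl42* (ENSMUSG00000062981, chr10:95480806-95501940, - strand), which has no counterpart in the bacterial ribosome, had the lowest estimate of the 76 genes. Its values were 793, 402 and 453 in CtrlCre and 631, 219 and 198 in Cpt1bcKO. Replicate 1 was the highest sample of either group, and Cpt1bcKO replicate 1 lay above 2 of the 3 CtrlCre samples. With all samples the log2 fold change was -0.80 (SE 0.40, limma adjusted p = 0.41). Without Cpt1bcKO replicate 1 it was -1.33 (adjusted p = 0.0252), and without replicate 1 of both groups it was -1.03 (adjusted p = 0.0123), so that the call on this gene changed when these libraries were left out.

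*Mrpl39*, also without a bacterial counterpart, likewise had its highest value of either group in replicate 1, with values of 258, 194 and 165 in CtrlCre and 218, 118 and 101 in Cpt1bcKO (-0.55, adjusted p = 0.42). *Mrpl47* had values of 87, 74 and 81 in CtrlCre and 83, 59 and 40 in Cpt1bcKO (-0.46, adjusted p = 0.48). *Mrpl58*, a peptidyl-tRNA hydrolase that is also built into the ribosome, had values of 171, 101 and 110 in CtrlCre and 147, 62 and 84 in Cpt1bcKO (-0.43, adjusted p = 0.59). In all 3 genes Cpt1bcKO replicate 1 lay within the range of the CtrlCre samples and the other Cpt1bcKO samples lay below it. Over the alternatives the estimates ranged from -0.88 to -0.33 for *Mrpl39*, from -0.72 to -0.20 for *Mrpl47* and from -0.77 to -0.15 for *Mrpl58*. *Mrpl23*, a protein of the polypeptide exit in bacteria, was near the filter, with values of 17, 18 and 19 in CtrlCre and 13, 15 and 9 in Cpt1bcKO. Its groups did not overlap, and the log2 fold change was -0.54 (SE 0.37, adjusted p = 0.57).

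Other large subunit genes with known roles did not pass the test. *Mrpl12*, a protein of the stalk that recruits translation factors and is also known to bind the mitochondrial RNA polymerase, had values of 207, 164 and 138 in CtrlCre and 278, 128 and 118 in Cpt1bcKO, with a log2 fold change of -0.052 and a 95% interval from -0.73 to 0.63. Over the alternatives the estimate for *Mrpl12* ranged from -0.44 to 0.17. *Mrpl10*, which anchors the stalk, had values of 173, 120 and 131 in CtrlCre and 138, 121 and 126 in Cpt1bcKO (-0.12, interval -0.55 to 0.30). *Mrpl11*, at the base of the stalk, had values of 82, 61 and 59 in CtrlCre and 73, 52 and 38 in Cpt1bcKO (-0.34, interval -0.95 to 0.27). For the stalk genes the samples of the groups overlapped, and each interval excluded a 2-fold change in either direction. *Mrpl41* had values of 223, 187 and 223 in CtrlCre and 253, 155 and 207 in Cpt1bcKO (-0.065, interval -0.51 to 0.38).

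In the small subunit, *Mrps35* (ENSMUSG00000040112, chr6:147042764-147073991, + strand) was the one gene with an unadjusted p below 0.05. Its product is specific to mitochondrial ribosomes. Values were 278, 252 and 279 in CtrlCre and 226, 178 and 136 in Cpt1bcKO. Every Cpt1bcKO sample lay below every CtrlCre sample, and the CtrlCre samples differed little from one another. The log2 fold change was -0.61 (SE 0.20, 95% interval -1.05 to -0.17), but it did not pass limma's test after adjustment over all genes (adjusted p = 0.20), and over the alternatives tried the adjusted p ranged from 0.051 to 0.49. *Mrps11* (chr7:78783119-78792989), a protein of the platform of the small subunit, had values of 69, 42 and 42 in CtrlCre and 48, 21 and 38 in Cpt1bcKO (-0.54, adjusted p = 0.53, with estimates from -0.79 to -0.21 over the alternatives). *Mrps28* had values of 77, 50 and 63 in CtrlCre and 55, 49 and 43 in Cpt1bcKO (-0.35, adjusted p = 0.57), and *Mrps17* 118, 85 and 88 in CtrlCre and 95, 66 and 72 in Cpt1bcKO (-0.32, adjusted p = 0.57). *Mrps21* had values of 210, 116 and 158 in CtrlCre and 143, 93 and 141 in Cpt1bcKO (-0.34, adjusted p = 0.59). For *Mrps11*, *Mrps28*, *Mrps17* and *Mrps21* the groups overlapped.

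Higher estimates were found for *Mrps2*, with values of 91, 116 and 93 in CtrlCre and 149, 128 and 107 in Cpt1bcKO (0.35, adjusted p = 0.47), and for *Mrps10*, with values of 30, 28 and 27 in CtrlCre and 42, 33 and 28 in Cpt1bcKO (0.25, adjusted p = 0.74). *Mrps34* had values of 59, 41 and 63 in CtrlCre and 64, 62 and 58 in Cpt1bcKO (0.19, adjusted p = 0.77). The groups overlapped for these genes, of which *Mrps2* is a counterpart of a bacterial protein that joins the small subunit late and *Mrps34* is specific to mitochondria.

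The paralogs *Mrps18a*, *Mrps18b* and *Mrps18c* derive from a single bacterial gene, and the ribosome holds the product of each at a different place, that of *Mrps18a* in the large subunit. *Mrps18a* (ENSMUSG00000023967, chr17:46110986-46128910, + strand) had values of 169, 144 and 169 in CtrlCre and 203, 183 and 186 in Cpt1bcKO, without overlap (0.25, SE 0.16, adjusted p = 0.54). *Mrps18b* had values of 19, 21 and 16 in CtrlCre and 26, 12 and 30 in Cpt1bcKO (0.18, adjusted p = 0.88). *Mrps18c* had values of 40, 22 and 38 in CtrlCre and 34, 25 and 18 in Cpt1bcKO (-0.36, adjusted p = 0.69). The differences among the paralogs were not tested. *Mrps30*, whose product is also found in the large subunit despite its symbol, had values of 368, 287 and 323 in CtrlCre and 423, 326 and 281 in Cpt1bcKO (0.061, interval -0.35 to 0.47).

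The groups also overlapped for *Mrps12*, *Mrps5*, *Mrps14*, *Mrps22* and *Mrps27*. *Mrps12*, at the decoding site, had values of 59, 30 and 24 in CtrlCre and 44, 20 and 28 in Cpt1bcKO (-0.25, interval -1.13 to 0.62, with estimates from -0.54 to 0.12 over the alternatives). *Mrps5* had values of 225, 141 and 135 in CtrlCre and 197, 96 and 120 in Cpt1bcKO (-0.30, interval -0.94 to 0.33). *Mrps14* had values of 310, 265 and 244 in CtrlCre and 258, 225 and 234 in Cpt1bcKO (-0.19, interval -0.54 to 0.17), and *Mrps22* 266, 202 and 201 in CtrlCre and 218, 174 and 188 in Cpt1bcKO (-0.20, interval -0.60 to 0.20). For *Mrps14* and *Mrps22* a 2-fold change in either direction lay outside the interval. *Mrps27*, a pentatricopeptide repeat protein, had values of 137, 104 and 97 in CtrlCre and 134, 118 and 109 in Cpt1bcKO (0.11, interval -0.33 to 0.54). *Mrps36* did not pass the filter, with values of 11, 8 and 6 in CtrlCre and 5, 5 and 0 in Cpt1bcKO, lower in every Cpt1bcKO sample but at a few counts each, and was not tested. Despite its symbol its product is a subunit of the α-ketoglutarate dehydrogenase complex, the enzyme that consumes α-ketoglutarate in the Krebs cycle.

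With *Mrps18a* and *Mrps30* counted in the large subunit and *Mrps36* left out, as the structure of the ribosome has it, the median log2 fold change was -0.017 over 50 large subunit genes and -0.16 over 26 small subunit genes. Beside these medians stand their values under other scalings and without single libraries. After scaling to the total without mitochondrial and rRNA genes, by symbol, the large subunit median was 0.079 and the small subunit median -0.0090, beside 0.11 over all genes. Relative to all genes these are differences of -0.028 and -0.12, against -0.030 and -0.12 with the authors' scaling, so that scaling moved the subunits and all genes alike. Without CtrlCre replicate 1 the medians were 0.058 and 0.037, and without Cpt1bcKO replicate 1 they were -0.13 and -0.25. Without Cpt1bcKO replicate 2 they were 0.032 and -0.044, without Cpt1bcKO replicate 3 they were 0.044 and -0.10, without CtrlCre replicate 2 they were -0.12 and -0.19, and without CtrlCre replicate 3 they were -0.030 and -0.16. The sign of the large subunit median thus turned without CtrlCre replicate 1, Cpt1bcKO replicate 2 or Cpt1bcKO replicate 3, and that of the small subunit median without CtrlCre replicate 1. The large subunit median also turned after scaling to the total without mitochondrial and rRNA genes. Scaling by the upper quartile turned it as well (0.013, and -0.075 in the small subunit, beside 0.043 over all genes).

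The medians of both subunits differed between libraries of the same group. On the log2 scale, the median difference of the large subunit genes from their CtrlCre mean was 0.18, -0.14 and -0.013 in CtrlCre replicates 1, 2 and 3 and 0.13, -0.11 and -0.15 in Cpt1bcKO replicates 1, 2 and 3. In the small subunit it was 0.27, -0.12 and -0.080 in CtrlCre and 0.26, -0.31 and -0.18 in Cpt1bcKO. Replicate 1 was thus the highest library of both groups, and the libraries of the groups overlapped in both subunits. It was the highest of its group for 32 of 48 large subunit genes in CtrlCre and 35 in Cpt1bcKO, and for 23 of 28 small subunit genes in either group. It led both groups at once for 46 of 76 genes (60.5%) and for 23.1% of all genes tested. The replicate 1 libraries are those with high *Xist*, and the part of sex in this pattern was not tested. Replicate 1 was likewise the highest of its group in cytosolic ribosomal protein genes, for 80.3% of 76 genes in CtrlCre and 76.3% in Cpt1bcKO, and in nuclear-encoded respiratory chain genes (79.2% and 68.8% of 77). Among all genes tested, replicate 1 was the highest of its group for 41.1% in CtrlCre and 39.1% in Cpt1bcKO.

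The count of unadjusted calls changed most without Cpt1bcKO replicate 1, among the single libraries left out. Without it, 9 of the 76 genes had an unadjusted p below 0.05, a smaller share than the 19.9% of all genes. All 9 were lower in Cpt1bcKO (4 large and 5 small subunit genes). *Mrpl42* alone of the 76 passed adjustment, beside 305 of all 11123 genes tested in that fit. A comparison without replicate 1 of both groups was chosen after the data were seen. In it 6 of 75 genes had an unadjusted p below 0.05, 1 higher and 5 lower, where 17.8% of all genes did. Again *Mrpl42* alone of the 75 passed adjustment, beside 246 of all 10835 genes tested in that fit. Without CtrlCre replicate 2 or CtrlCre replicate 3 the unadjusted count was 2 in place of 1, beside 12.1% and 11.3% of all genes. Without CtrlCre replicate 1, Cpt1bcKO replicate 2 or Cpt1bcKO replicate 3 the count was 1, beside 10.7%, 8.82% and 12.0% of all genes.

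**Figure D2:**
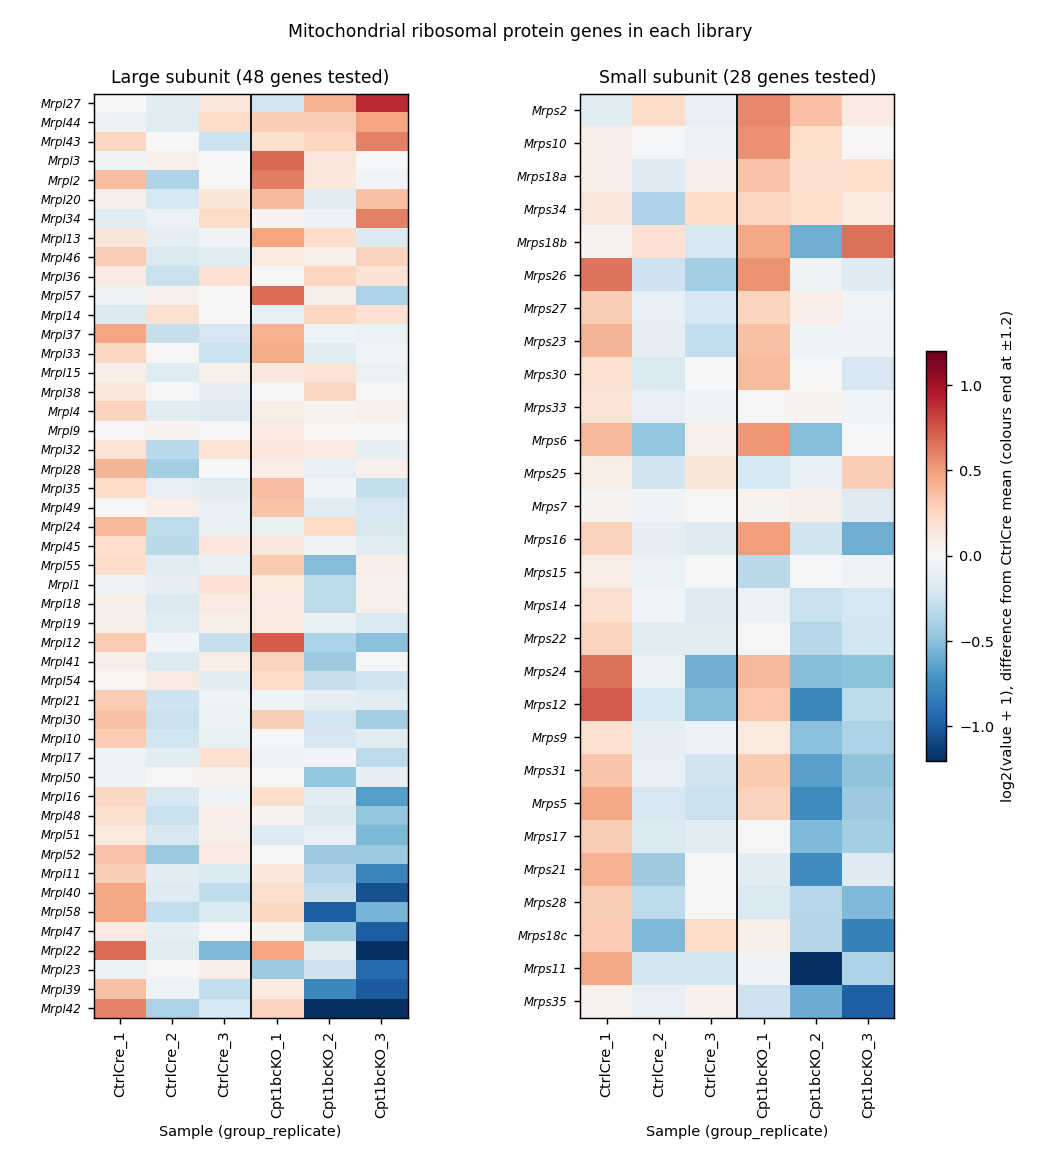
Log2(value + 1) of each mitochondrial ribosomal protein gene in each of the 6 libraries as the difference from the CtrlCre mean of that gene (colour), with genes in rows ordered by fold change and libraries in columns. Red is higher and blue lower, colours end at 1.2 in either direction, and replicate 1 is the highest library of both groups for 46 of 76 genes.

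**Figure D3:**
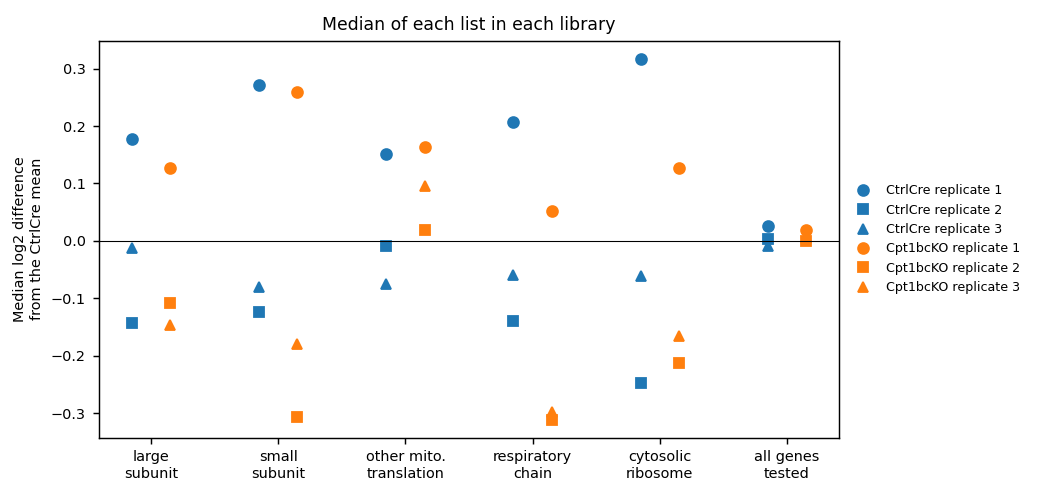
Median difference from the CtrlCre mean on the log2 scale (y axis) in each library (symbols) for both subunits, other mitochondrial translation genes, respiratory chain genes, cytosolic ribosomal protein genes and all genes tested. Replicate 1 of CtrlCre lies at 0.18 for the large and 0.27 for the small subunit and replicate 1 of Cpt1bcKO at 0.13 and 0.26, above the other libraries, whereas the medians over all genes lie near 0.

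Although the proteins are built into one particle, their transcripts spanned a wide range. Levels are given as normalized counts per kilobase (kb) of exon, so that genes of different length can be compared. In CtrlCre the median level was 46.3 in the large and 36.2 in the small subunit. *Mrpl18* was the most abundant at 1467 ± 149 (SD, n = 3), followed by *Mrpl52* at 422 ± 111 and *Mrpl41* at 238 ± 23.4. *Mrpl18* stood above every other gene in each CtrlCre library, while *Mrpl41* and *Mrpl52* differed by more than their SDs. In normalized counts *Mrpl18* had 2140, 1812 and 2199 in CtrlCre and 2195, 1647 and 2130 in Cpt1bcKO (log2 fold change -0.049, interval -0.40 to 0.30). The lowest large subunit levels were those of *Mrpl23* at 3.69 ± 0.205, *Mrpl33* at 3.82 ± 0.683 and *Mrpl32*, of which the first pair did not differ beyond their SDs.

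In the small subunit *Mrps21* led at 218 ± 63.7 normalized counts per kb, followed by *Mrps23* at 175 ± 46.6 and *Mrps24* at 98.2 ± 43.3. *Mrps21* and *Mrps23* did not differ beyond their spread. *Mrps10* was lowest at 3.51 ± 0.189, and *Mrps36* and *Mrps26* followed. The order of levels was similar in Cpt1bcKO (Spearman's rho 0.984 across 48 large and 0.963 across 29 small subunit genes, a description over genes of the same 6 libraries). Summed, large subunit genes made up 0.287%, 0.227% and 0.258% of the values outside mitochondrial and rRNA genes in CtrlCre and 0.325%, 0.237% and 0.238% in Cpt1bcKO. The small subunit genes made up 0.120%, 0.0933% and 0.0978% in CtrlCre and 0.126%, 0.0939% and 0.0936% in Cpt1bcKO, so that the groups overlapped for both subunits.

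**Figure D4:**
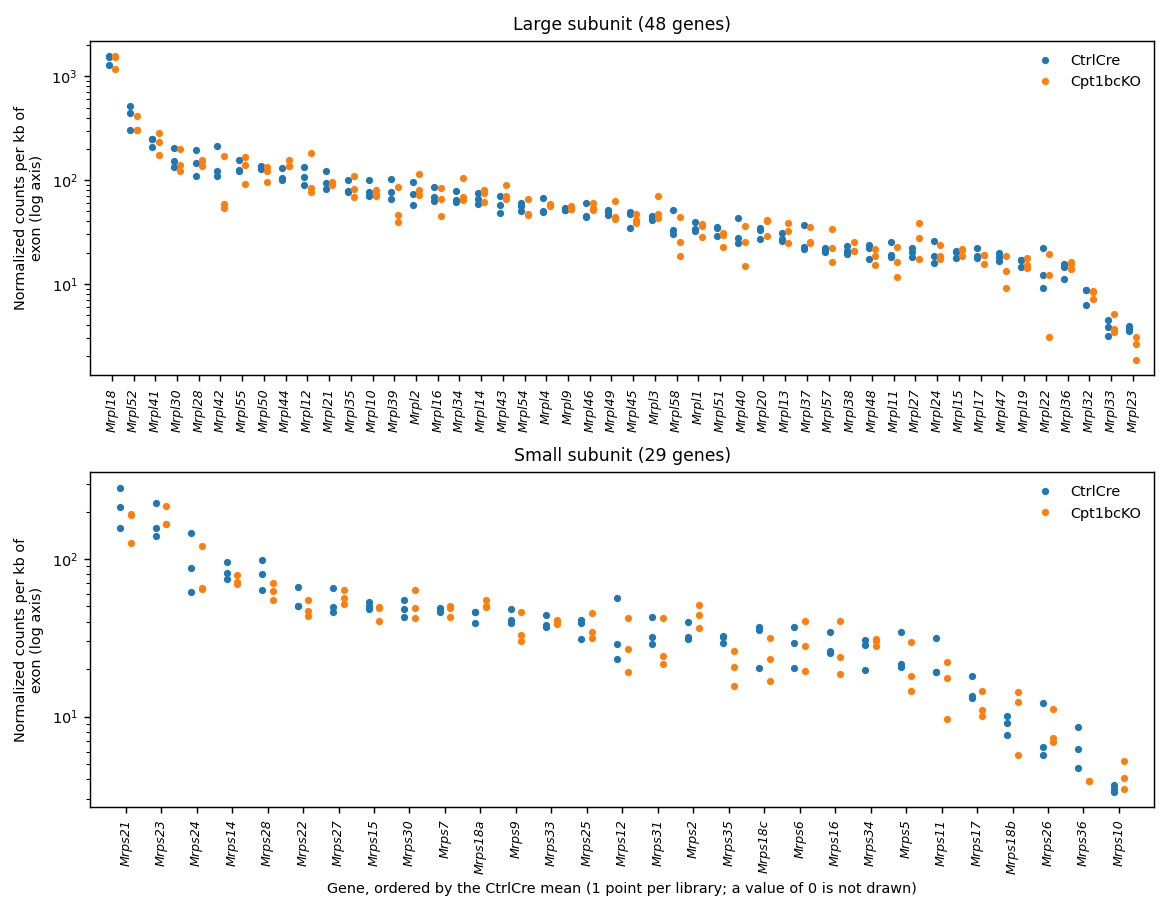
Normalized counts per kb of exon (y axis, log scale) of each gene, ordered by the CtrlCre mean, for 48 large subunit genes (top) and 29 small subunit genes (bottom), with one point per library and CtrlCre and Cpt1bcKO side by side. *Mrpl18* lies apart at 1467 in CtrlCre, and the order in Cpt1bcKO is similar (Spearman's rho 0.984 and 0.963).

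The genes are spread over 17 chromosomes, with 11 on chromosome 11 and 8 on chromosome 17. A protein-coding gene on the opposite strand starts next to 26 of the 77 genes (33.8%), with starts at most 1000 bases apart or overlapping by at most 500 bases, compared with 13.9% of all 12811 protein-coding genes of the table. *Mrpl46* and *Mrps11* are such a pair, so that a large and a small subunit gene share one start region. *Mrpl46* had values of 86, 62 and 64 in CtrlCre and 76, 73 and 85 in Cpt1bcKO (0.15), beside -0.54 for *Mrps11*, and neither passed the test. Of the 21 neighbours tested, 0 had an adjusted p below 0.05 and 3 had an unadjusted p below 0.05, all higher in Cpt1bcKO, a share near the 13.9% of all genes with such a p in either direction (6.66% higher). The neighbour of *Mrpl44*, *Wdfy1*, had values of 38, 74 and 34 in CtrlCre and 95, 130 and 124 in Cpt1bcKO, without overlap (1.31, SE 0.30, limma adjusted p = 0.062). The others were *Klc4* beside *Mrpl2* (0.53, adjusted p = 0.31) and *Pnpla7* beside *Mrpl41* (0.57, adjusted p = 0.31). Exons of 27 of the 77 genes overlap a gene on the opposite strand, and whether reads were assigned by strand is not stated. The shared part on the opposite strand exceeds 30% of the exonic bases of 5 genes: *Mrps25* shares 69.8% with *Nr2c2*, *Mrps34* 63.4% with *Mapk8ip3*, *Mrpl19* 36.0% with *Gcfc2*, *Mrpl43* 33.4% with *Twnk* and *Mrps18b* 30.5% with *Gm16279*. On the same strand 7 of the 77 genes share exonic bases, the most being 37.0% of *Mrps34* with *Nme3* and 23.2% of *Mrps18c* with *Gm43511*, and reads on such bases were left out by the authors' counting.

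Promoters of nuclear genes for mitochondrial proteins are known for sites of NRF1, of ETS factors such as GABPA, and of YY1. RefSeq promoter windows (GRCm38.p6, from 250 bases before to 50 bases after a start) were found for 68 of the 77 genes, and exact letters were searched on both strands. The ETS letters CCGGAAG occurred in 25 of the 68 genes (36.8%), compared with 21.2% of the other 8083 protein-coding genes tested and 9.93% of all 27025 genes with a window. The NRF1 letters GCGCATGCG occurred in 7 (10.3%, against 4.39% and 1.95%), and the YY1 letters AAGATGGCG in 8 (11.8%, against 3.96% and 1.64%). At least one of the 3 occurred in 35 of 68 genes (51.5%) and in 27.3% of the other genes tested. In 57 cytosolic ribosomal protein genes the ETS, NRF1 and YY1 letters occurred in 42.1%, 5.26% and 5.26%, and in 65 respiratory chain genes in 24.6%, 12.3% and 10.8%. The differences between these shares were not tested. The TATA box letters TATAAA occurred in 5 (7.35%, against 8.80% and 15.7%) and the CRE letters TGACGTCA in 2 (2.94%, against 3.84% and 2.03%). The ETS letters were in 14 of 42 large and 11 of 26 small subunit genes, and the NRF1 letters in 6 and 1. A match is a description of the letters and not a binding site.

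The windows of 6 genes whose values are given above are shown in the direction of transcription, with the matched letters in capitals, to set promoters with matches beside one without. They are those of *Mrps18a* (chr17:46110754-46111053, + strand; ETS, then YY1), *Mrpl42* (chr10:95501900-95502199, - strand; YY1), *Mrpl39* (chr16:84735195-84735494, - strand; NRF1), the pair *Mrps11* (chr7:78782881-78783180, + strand; YY1) and *Mrpl46* (chr7:78783040-78783339, - strand; TATA box), whose windows overlap, and *Mrpl44* (chr1:79775768-79776067, + strand), in which none of the 5 motifs was found.
Mrps18a: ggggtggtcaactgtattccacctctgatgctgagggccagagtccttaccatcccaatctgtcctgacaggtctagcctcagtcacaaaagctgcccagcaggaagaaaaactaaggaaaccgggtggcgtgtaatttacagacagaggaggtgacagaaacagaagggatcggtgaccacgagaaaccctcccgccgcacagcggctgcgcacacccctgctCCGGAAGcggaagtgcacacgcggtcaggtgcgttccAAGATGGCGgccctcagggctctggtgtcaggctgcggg
Mrpl42: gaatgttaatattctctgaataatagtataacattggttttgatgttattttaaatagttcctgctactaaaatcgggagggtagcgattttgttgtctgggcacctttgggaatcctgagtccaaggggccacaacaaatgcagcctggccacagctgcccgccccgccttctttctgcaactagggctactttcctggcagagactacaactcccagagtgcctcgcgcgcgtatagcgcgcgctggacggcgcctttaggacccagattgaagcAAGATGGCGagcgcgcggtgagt
Mrpl39: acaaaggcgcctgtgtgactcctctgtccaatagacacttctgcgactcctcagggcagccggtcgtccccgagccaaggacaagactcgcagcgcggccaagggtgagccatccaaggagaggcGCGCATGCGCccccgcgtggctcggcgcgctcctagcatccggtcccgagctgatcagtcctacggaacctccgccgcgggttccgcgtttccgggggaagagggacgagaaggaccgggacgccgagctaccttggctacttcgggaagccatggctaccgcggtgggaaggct
Mrps11: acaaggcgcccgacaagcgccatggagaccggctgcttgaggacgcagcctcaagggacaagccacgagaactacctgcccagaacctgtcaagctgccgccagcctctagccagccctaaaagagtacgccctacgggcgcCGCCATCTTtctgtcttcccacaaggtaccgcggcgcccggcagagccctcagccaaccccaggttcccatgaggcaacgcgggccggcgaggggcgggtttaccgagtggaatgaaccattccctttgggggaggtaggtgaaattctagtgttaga
Mrpl46: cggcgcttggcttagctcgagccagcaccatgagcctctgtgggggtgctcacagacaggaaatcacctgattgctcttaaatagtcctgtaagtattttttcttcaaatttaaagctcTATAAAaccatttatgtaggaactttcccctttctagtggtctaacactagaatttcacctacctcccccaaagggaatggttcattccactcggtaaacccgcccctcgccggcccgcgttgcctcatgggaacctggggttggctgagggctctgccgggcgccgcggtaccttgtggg
Mrpl44: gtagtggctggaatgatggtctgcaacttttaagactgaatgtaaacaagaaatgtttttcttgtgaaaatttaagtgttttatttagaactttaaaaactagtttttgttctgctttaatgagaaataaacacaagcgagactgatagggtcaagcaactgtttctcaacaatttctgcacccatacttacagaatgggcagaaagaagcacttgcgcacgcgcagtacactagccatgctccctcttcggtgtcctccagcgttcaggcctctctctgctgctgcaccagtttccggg
The windows of *Mrpl42* and *Mrps18a* both hold the YY1 letters shortly after the annotated start, while the estimate was -0.80 for the first gene and 0.25 for the second.

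The rRNAs around which these proteins assemble varied widely between Cpt1bcKO libraries. *mt-Rnr1*, the rRNA of the small subunit, had values of 455578, 326798 and 310591 in CtrlCre and 360409, 525566 and 673231 in Cpt1bcKO (log2 fold change 0.49, SE 0.37, limma adjusted p = 0.60). *mt-Rnr2*, the rRNA of the large subunit, had values of 10490796, 9606145 and 8634455 in CtrlCre and 8270507, 14407172 and 25646063 in Cpt1bcKO (0.60, SE 0.97, adjusted p = 0.83). The groups overlapped for both, with Cpt1bcKO replicate 1 lowest of its group, whereas that library was the highest of its group for most ribosomal protein genes. Over the alternatives the estimate ranged from 0.28 to 0.90 for *mt-Rnr1* and from 0.19 to 1.08 for *mt-Rnr2*.

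Of the other genes of mitochondrial translation, 74 were in the table and 71 were tested. With limma, 0 had an adjusted p below 0.05, and 5 had an unadjusted p below 0.05, all higher in Cpt1bcKO, beside 6.66% of all genes in that direction. The median log2 fold change was 0.040 (41 genes above 0 and 30 below), and it was 0.098 without CtrlCre replicate 1 and 0.022 without CtrlCre replicate 2 or replicate 3. The groups did not overlap for 10 genes higher and 1 lower in Cpt1bcKO, beside 9.13% and 9.6% of all genes. Aminoacyl-tRNA synthetases, which charge mitochondrial tRNAs, and related enzymes had a median of 0.21 over 20 genes. Of these 20 genes, 3 had an unadjusted p below 0.05, beside 13.9% of all genes in either direction (6.66% higher). The tryptophan enzyme *Wars2* had values of 50, 37 and 40 in CtrlCre and 70, 77 and 98 in Cpt1bcKO, without overlap (0.93, SE 0.23, adjusted p = 0.092). The tyrosine enzyme *Yars2* had values of 65, 72 and 47 in CtrlCre and 86, 84 and 96 in Cpt1bcKO (0.54, adjusted p = 0.30), and the glutamate enzyme *Ears2* 19, 15 and 16 in CtrlCre and 27, 24 and 34 in Cpt1bcKO (0.72, adjusted p = 0.34), also without overlap. In the opposite direction the cysteine enzyme *Cars2* had values of 126, 83 and 112 in CtrlCre and 85, 76 and 67 in Cpt1bcKO (-0.47, adjusted p = 0.37).

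The remaining groups gave smaller medians, and their unadjusted calls stand beside a share of 13.9% over all genes. Genes of ribosome assembly and rRNA modification had a median of 0.049 over 22 genes, with 0 unadjusted calls. Translation factors had a median of -0.029 over 12 genes, also with 0 unadjusted calls, and the release factor gene *Mtrf1l* had values of 63, 56 and 71 in CtrlCre and 55, 38 and 43 in Cpt1bcKO (-0.48, adjusted p = 0.40). Genes that act on messenger RNA or anchor the ribosome at the inner membrane had a median of 0.17 over 5 genes. Among these *Letm1* had values of 255, 292 and 211 in CtrlCre and 331, 364 and 342 in Cpt1bcKO, without overlap (0.46, SE 0.16, adjusted p = 0.23), and *Oxa1l*, the insertase to which the ribosome docks, 215, 187 and 165 in CtrlCre and 188, 113 and 120 in Cpt1bcKO (-0.46, adjusted p = 0.39). Genes of mitochondrial transcription and DNA maintenance had a median of 0.0040 over 7 genes, with 1 unadjusted call for *Polg*, the DNA polymerase (182, 214 and 202 in CtrlCre, 260, 238 and 273 in Cpt1bcKO, adjusted p = 0.33). The 5 ribosomal proteins whose symbols lie outside the Mrpl and Mrps names had a median of -0.12 and 0 unadjusted calls.

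For comparison, cytosolic ribosomal protein genes had a median of -0.089 over 76 genes, with 1 lower at an adjusted p below 0.05, and 4 at an unadjusted p below 0.05, 2 in each direction, beside 1.57% and 13.9% of all genes. Nuclear-encoded respiratory chain genes, whose products join the proteins made by the mitochondrial ribosome, had a median of -0.18 over 77 genes. Of these, 64 had an estimate below 0, beside 50.2% of all genes. At an unadjusted p below 0.05, 6 were lower and 1 was higher, beside 7.22% and 6.66% of all genes, and 0 passed adjustment. Differences between these lists were not tested.

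**Figure D5:**
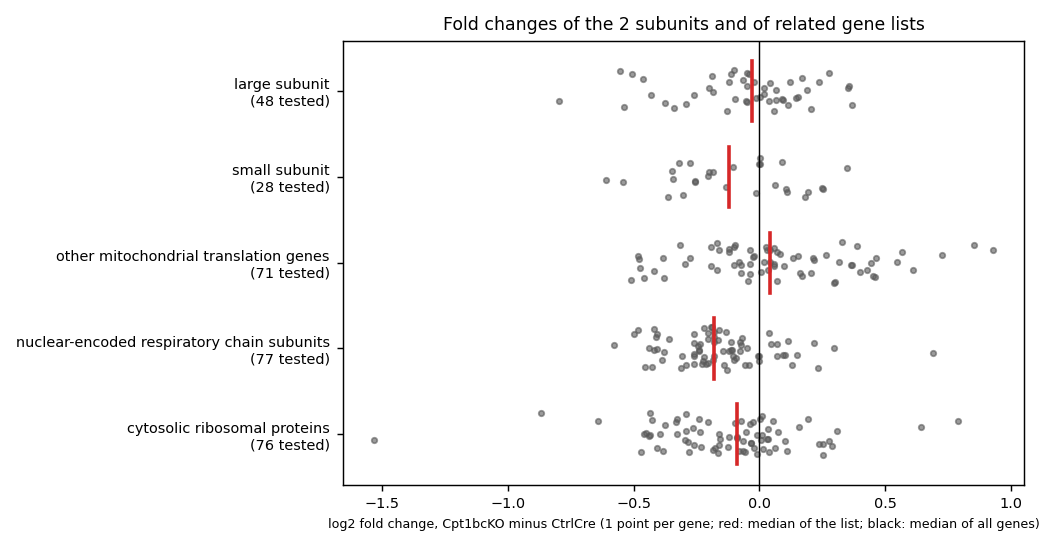
Log2 fold change, Cpt1bcKO minus CtrlCre (x axis), of each gene tested in both subunits and in 3 related gene lists, with one point per gene. Red bars mark the list medians, -0.032 and -0.12 for the large and small subunit, 0.040 for other mitochondrial translation genes, -0.18 for respiratory chain genes and -0.089 for cytosolic ribosomal protein genes, and the black line the median of all genes.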

How the data were processed

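Total RNA of adult CMs from 3 CtrlCre and 3 Cpt1bcKO samples was sequenced by the authors from a stranded library (single-end reads). The submitters' processing notes name FastQC 0.11.8, Trimmomatic 0.36, STAR 2.5.4b, featureCounts 1.6.0 and DESeq2 1.14.1. The deposited values are a normalized score: read counts per gene divided by the authors' size factors and rounded to whole numbers, so raw counts were not used and a count model was not fitted. Reads on several genes were excluded by the authors, which can lower genes with overlaps. The authors' own comparison columns (means, fold changes and p values) were not used.

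A value of 10 or above in 3 or more samples was required (11364 of 16448 genes), log2(value + 1) was fitted with limma 3.58.1 (lmFit, eBayes with trend, R 4.3.3) with group as the only term, and p values were adjusted by Benjamini-Hochberg over all genes tested, 2-sided. Fold changes on this scale understate changes of low genes. An exact permutation test of 3 against 3 samples cannot go below p = 0.10 and was not used. Exon lengths came from GENCODE release M21 (GRCm38), which held 16427 of the genes, with the same start and end for 58 of the 77 genes. Coordinates are those of the deposited table. The steps between low values gave an estimate of depth for 5 of 6 samples, 14853600 to 24514900 reads. The fit was tested on simulated data of 3 against 3 samples. At an adjusted p below 0.05 it called 48 of 98 genes with a log2 fold change of 1 in either direction. It called 95 of 99 genes with a log2 fold change of 2 and 13 of 11201 genes without a change. Many changes of 2-fold would thus be missed at this sample size.

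The members and lists were chosen with earlier results of these data known. Named were genes passing the test, in each subunit the 5 of smallest p in each direction and the 3 of highest and lowest level, genes with known roles, those failing the filter, and in the translation list the genes of smallest p. *Mrpl46*, *Ears2*, *Polg*, *Wdfy1*, *Klc4*, *Pnpla7*, *Xist*, *Mrpl22* and the genes with large exonic overlaps were named after their values were seen. Alternatives were 2 other pseudocounts (0.5 and 5), 2 filters, 3 scalings, a replicate block, a correction for GC content, a prior variance without trend, other call rules, subunits by structure and each sample left out. A fit without replicate 1 of both groups was added after the data were seen. The ranges given over the alternatives include it.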

Additional observations from a re-analysis of the deposited data

How the results depend on the processing

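The alternatives were run for *Cpt1b* and the genes named by the stated rule, not for those named after their values were seen. Among the genes run, none reversed its direction by more than its SE, and the calls of *Mrpl42*, *Wars2* and *Cpt1b* changed. The labels do not say whether samples with the same replicate number belong together, and the values did not settle it. The correlations of deviations were 0.38, 0.25 and 0.068 for numbers 1, 2 and 3, all above 0. Not every sample correlated best with its own number. The main fit has no term for the replicate, and its counts and intervals hold for unpaired samples. With the replicate block, 603 genes passed in place of 178, among them 1 large subunit gene, *Mrpl42* (adjusted p = 0.0198), 0 small subunit genes and 1 other translation gene, *Wars2* (adjusted p = 0.0475), and 5 of the 76 genes had an unadjusted p below 0.05, where 20.8% of all genes did. For *Mrpl42* the log2 fold change with the block was -0.80 (SE 0.16), with no library left out. With the GC correction and the replicate block together, 594 genes passed, again 1 large subunit gene and 1 other translation gene (*Mrpl42*, -0.76, adjusted p = 0.0230, and *Wars2*, 0.95, adjusted p = 0.0439). Leaving out samples gave 0 to 1 large subunit gene, 40 to 305 of all genes when 1 sample was left out, and 246 without replicate 1 of both groups. By other call rules, non-overlap of the groups held for 2 of 48 large, 2 of 28 small and 11 of 71 other translation genes, beside 18.7% of all genes. An unadjusted p below 0.05 was found for 0, 1 and 5 of them, beside 13.9% of all genes. Scaling to the total without mitochondrial and rRNA genes moved the median of the other translation genes to 0.15, with that of all genes at 0.11. With a prior variance without trend, 41 genes passed, and *Cpt1b* had an adjusted p of 0.0563 at the same log2 fold change of -2.27. The cause of these changes was not tested. Genes with values near 10, such as *Mrpl23* and *Mrpl22*, have few reads behind each value, and the rounding to whole numbers is coarse there.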
